A study of Mus musculus with 12 samples.

Results

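The BCL2 family genes that decide whether a cell keeps its mitochondria intact were followed across the 4 groups of BMDCs, which are mouse dendritic cells derived from marrow. The members were 10 genes of 55335 in the files, taken by gene symbol with earlier results of these data known. They were the survival genes Bcl2, Bcl2l1 (encoding BCL-XL), Mcl1, Bcl2a1a, Bcl2a1b and Bcl2a1d (encoding the copies of A1), the BH3-only genes Bcl2l11 (BIM), Pmaip1 (NOXA) and Bbc3 (PUMA), and the effector gene Bax. WT cells came from CreER mice and KO cells from CreER;CTCF fl/fl mice, both on the C57BL/6 strain, male and female, 8 to 12 weeks old. All mice carried the tamoxifen-activated Cre at Rosa26, which acts in all cell types of the marrow culture and not in dendritic cells alone. Marrow was grown with GM-CSF for 6 days, 4-OH tamoxifen was added on the first day to delete Ctcf, and floating CD11c+ cells were selected with beads. WTL and KOL were the same cells after 3 h with LPS, a bacterial ligand of TLR4, at 100 ng/ml. The study describes the agent as removing Ctcf in KO but not in WT cells, which can be read as WT cultures that did not receive it or as cultures without a floxed allele to delete. Under the first reading the agent and the deletion cannot be told apart. Each group had 3 libraries described as biological replicates, without the animal or culture of each. In the main fit, p-values measure the spread between these libraries as an estimate shared by the 4 groups, not that of the groups compared.

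BCL2 proteins control the release of cytochrome c from mitochondria, the step that commits a cell to intrinsic apoptosis. BAX and its relative BAK1 form pores in the outer mitochondrial membrane, the survival proteins hold them in check, and BH3-only proteins such as BIM, NOXA and PUMA bind the survival proteins and free the pore formers. In myeloid cells, NF-κB induces A1 and BCL-XL after Toll-like receptor signals, GM-CSF sustains MCL1 and BCL-XL through STAT5, and p53 can induce Bax, Bbc3 and Pmaip1.

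The mouse genome holds several copies of Bcl2a1 on chromosome 9, and the start of their coding sequences is shown because short reads must tell the copies apart by a few such bases. The stretch runs for 30 bases from the start codon, and capitals mark the 5 positions at which the 3 copies are not all alike. In Bcl2a1a it lies at chr9:88957051-88957080 on the plus strand of mm10.
Bcl2a1a: atgGctgagtCTgagCtcatgCatatccac
Bcl2a1b: atgGctgagtACgagTtcatgTatatccac
Bcl2a1d: atgTctgagtACgagTtcatgTatatccac
Along their whole transcripts, Bcl2a1a and Bcl2a1b differed at 15 of 817 aligned bases (98.2% identical), Bcl2a1a and Bcl2a1d at 10 of 819 (98.8%), and Bcl2a1b and Bcl2a1d at 7 of 817 (99.1%). Reads were paired and 100 bases long. Of all windows of that length, 43.5% in Bcl2a1a, 31.1% in Bcl2a1b and 54.7% in Bcl2a1d occurred without change in another copy, so a read from such a window cannot be assigned by its own sequence. The coding sequence was 516 bases in each of the 3.

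The promoters of the 3 copies are shown because the copies moved together with LPS. Each runs from 250 bases before to 50 after the start site that RefSeq gives on GRCm38.p6, the assembly also called mm10, and capitals mark bases that differ from, or are inserted relative to, another copy where their windows overlap. Bases at the ends that reach beyond the window of another copy are in lower case. Bcl2a1a lies at chr9:88956670-88956969 on the plus strand, Bcl2a1b at chr9:89199023-89199322 on the plus strand and Bcl2a1d at chr9:88731801-88732100 on the minus strand.
Bcl2a1a promoter: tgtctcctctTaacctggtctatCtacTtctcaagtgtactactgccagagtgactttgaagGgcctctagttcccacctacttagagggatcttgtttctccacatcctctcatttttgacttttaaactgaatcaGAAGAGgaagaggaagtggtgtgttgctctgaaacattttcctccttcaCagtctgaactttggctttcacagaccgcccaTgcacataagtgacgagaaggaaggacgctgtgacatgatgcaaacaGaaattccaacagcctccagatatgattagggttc
Bcl2a1b promoter: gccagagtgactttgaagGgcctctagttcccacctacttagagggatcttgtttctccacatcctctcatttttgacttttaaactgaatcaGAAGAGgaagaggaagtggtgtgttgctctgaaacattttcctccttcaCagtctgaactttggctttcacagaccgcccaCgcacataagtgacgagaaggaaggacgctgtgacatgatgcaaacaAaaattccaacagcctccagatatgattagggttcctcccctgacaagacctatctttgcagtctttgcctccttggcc
Bcl2a1d promoter: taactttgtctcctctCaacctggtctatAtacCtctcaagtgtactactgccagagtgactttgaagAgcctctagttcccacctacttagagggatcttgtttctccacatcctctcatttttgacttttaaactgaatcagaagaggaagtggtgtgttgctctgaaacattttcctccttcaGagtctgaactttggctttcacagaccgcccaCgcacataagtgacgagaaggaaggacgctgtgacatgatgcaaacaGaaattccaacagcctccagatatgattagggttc
The aligned bases were 99.2% identical between Bcl2a1a and Bcl2a1b, 98% between Bcl2a1a and Bcl2a1d, and 98.8% between Bcl2a1b and Bcl2a1d. The start sites of the copies are annotated at different places in the aligned sequence.

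RefSeq promoters were matched to 9 of the 10 members, with 14 start sites in all. They were searched on both strands for the κB consensus motif bound by NF-κB, for TTCNNNGAA bound by STAT5, and for the p53 half-site. The κB motif was found in 1 promoter of Bcl2l1 (chr2:152830668-152830967, minus strand) and in 1 of Bbc3 (chr7:16309333-16309632, plus strand), in which capitals mark it.
Bcl2l1 promoter: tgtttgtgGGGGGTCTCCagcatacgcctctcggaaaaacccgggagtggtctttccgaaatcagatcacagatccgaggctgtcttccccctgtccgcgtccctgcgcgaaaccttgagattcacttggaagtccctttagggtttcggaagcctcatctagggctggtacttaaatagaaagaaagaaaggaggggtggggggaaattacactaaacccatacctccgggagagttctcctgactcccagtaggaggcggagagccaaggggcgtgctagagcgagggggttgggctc
Bbc3 promoter: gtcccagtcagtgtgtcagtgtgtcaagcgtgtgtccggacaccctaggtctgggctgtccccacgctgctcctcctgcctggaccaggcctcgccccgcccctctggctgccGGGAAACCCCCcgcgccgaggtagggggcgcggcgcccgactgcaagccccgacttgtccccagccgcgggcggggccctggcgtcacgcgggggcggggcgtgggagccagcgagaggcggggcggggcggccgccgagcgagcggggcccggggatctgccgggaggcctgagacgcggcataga
In Bbc3 the consensus was matched at the same place on both strands, with a further match on the minus strand shifted by 1 base. A p53 half-site was found in the Bax promoter at -201 from the start site, and TTCNNNGAA in no member's promoter. Of 32851 mouse promoters of the same length, 8.46% held the κB motif, 8.3% TTCNNNGAA and 8.36% the p53 half-site. These matches are letters in a window of 300 bases and say nothing of binding.

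The libraries held 12769773 to 16586334 expected counts each, and the study's targeted gene was checked first. Ctcf, the gene of the insulator protein CTCF, had 1051, 987 and 975 normalized counts in WT, 886, 817 and 745 in WTL, 570, 562 and 516 in KO, and 563, 530 and 526 in KOL, which leaves 1.83-fold less of its RNA in KO than in WT. Between-replicate variation was larger with LPS, with a coefficient of biological variation of 13.7% in WTL and 14.4% in KOL against 4.92% in WT and 2.61% in KO. In WTL replicate 2 ribosomal RNA made up 5.17% of all counts, above the 0.383% to 1.19% of the remaining libraries. Dendritic cell markers were present in every library, all 7 of them, whereas those for T cells were all under 10 counts in every library. Summed normalized counts of the dendritic cell markers were 112774 to 118666 in WT, 154304 to 208299 in WTL, 93695 to 95556 in KO and 173345 to 231285 in KOL. Of the 7, 1 was higher in KO than in WT, Itgax (from 12348.5 ± 318 to 22023 ± 117), and 3 were lower, among them H2-Aa (from 32614 ± 1228 to 14740 ± 261).

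Per length, the A1 copies were by far the most abundant members. Levels between genes were compared as TPM, which RSEM corrects for transcript length and which adds up to a fixed total per library. In WT cells Bcl2a1b stood at 735 ± 12.4 TPM (SD, n = 3), Bcl2a1d at 506 ± 16.2 and Bcl2a1a at 346 ± 9.18. Mcl1 (247 ± 17.4 TPM) and Bax (232 ± 19.5 TPM) came next with overlapping libraries. Pmaip1 followed at 79.4 ± 5.84 TPM and Bcl2l11 at 43.2 ± 0.66 TPM, then Bbc3 (22.5 ± 2.49 TPM) and Bcl2l1 (18.8 ± 2.49 TPM), which overlapped as well. Bcl2 itself was at the bottom with 0.92 ± 0.05 TPM. With LPS the order changed at 1 gene above all: Bcl2l1 stood at 157 ± 25.2 TPM in WTL, where its libraries overlapped those of Bax (165 ± 16.6 TPM), and at 136 ± 25 TPM in KOL. In KOL, Bcl2a1b (2094 ± 158 TPM) and Bcl2a1d (2088 ± 174 TPM) could no longer be ranked. Added together, the 6 survival genes amounted to 1854 ± 55.9 TPM in WT, 5196 ± 385 in WTL, 1552 ± 31.7 in KO and 5815 ± 492 in KOL, and the 3 BH3-only genes to 145 ± 7.14, 154 ± 10.5, 129 ± 4.92 and 157 ± 10.3 TPM.

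**Figure D1:**
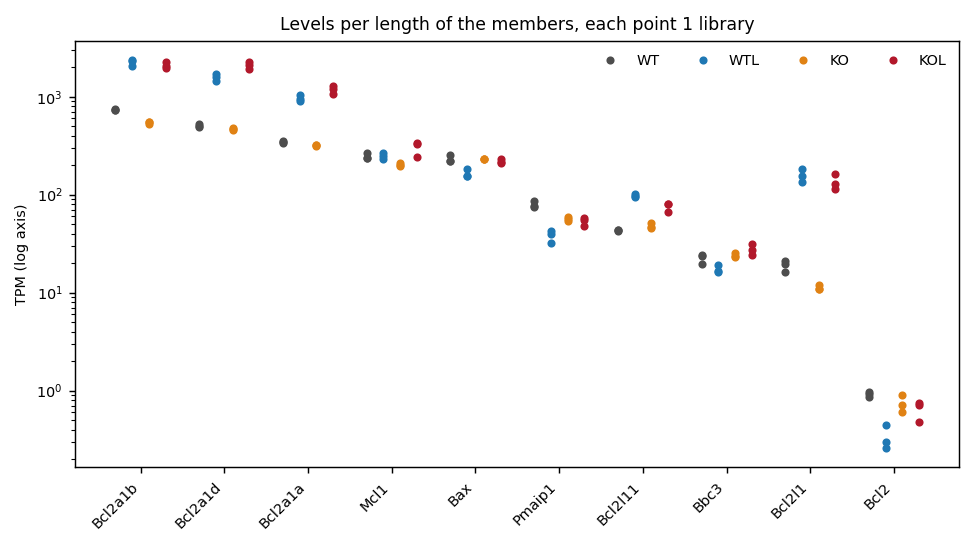
TPM of each of the 10 members on a log axis, 1 point for each library, ordered by the WT mean and coloured by group. Bcl2l1 moves from 18.8 TPM in WT to 157 TPM in WTL, and Bcl2 stays below 1 TPM in all 12 libraries.

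Across the comparisons, the largest log2 fold changes of members were those of Bcl2l1 and the A1 copies with LPS. In WTL against WT, 8 of the 10 members passed the test, 6 of them higher and 2 lower, where 60.2% of the 14008 genes tested passed (30% higher and 30.2% lower). In KO against WT, 3 members passed and all 3 were lower, beside 44.6% of all genes (22.2% higher and 22.4% lower), a count too near that share to be read as a result about the members. In KOL against WTL, 8 passed, 7 higher and 1 lower, beside 44.7% of all genes (21.4% higher and 23.3% lower). In KOL against KO, 9 passed and all 9 were higher, beside 67.5% of all genes (33.6% higher and 33.9% lower). The median log2 fold change of the members was 1.10, -0.10, 0.38 and 1.15 in these comparisons, against medians between -0.03 and -0.01 over all genes tested. All 10 members passed the filter on low counts. Bcl2a1a, Bcl2a1b and Bcl2a1d, which share reads, enter these counts and medians as separate genes.

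Scaling decides some of these directions. The counts were scaled with TMM, whose factors were at least 1.197 in the WT and 1.1199 in the KO libraries but at most 0.877 in the WTL and 0.884 in the KOL libraries. On the TPM scale the median of all genes lay 0.49 lower on the log2 scale for WTL against WT and 0.43 lower for KOL against KO. The share of higher genes among all called genes was then 18.5% in place of 49.9% for WTL against WT, 24.5% in place of 49.7% for KOL against KO and 36.4% in place of 49.8% for KO against WT. Of the members, limma on log2(TPM + 1) called 8 in WTL against WT (5 higher and 3 lower, beside 68.9% of all genes) and 6 in KOL against KO, all higher (beside 68.3%). These values are relative to the other RNA of a library, and fewer cells of a type and less RNA per cell cannot be told apart.

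Among the survival genes, Bcl2l1 had the largest rise. Its normalized counts were 415, 395 and 363 in WT, 3706, 4658 and 5172 in WTL, 232, 251 and 247 in KO, and 4667, 3464 and 3957 in KOL. All LPS libraries lay far above all unstimulated ones, the KO libraries lay below the WT libraries, and WTL and KOL overlapped. Bcl2l1 was 11.5-fold higher in WTL than in WT (log2 fold change 3.53 ± 0.13 SE, adjusted p = 2.06e-11) and 16.6-fold higher in KOL than in KO (4.05 ± 0.14, adjusted p = 6.07e-12). It was 1.61-fold lower in KO than in WT (-0.69 ± 0.14, adjusted p = 0.000849). Between KOL and WTL the difference of -0.16 (95% interval -0.40 to 0.07) did not pass (adjusted p = 0.289), although without WTL replicate 1 it was -0.29 and did (adjusted p = 0.0398).

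The A1 copies rose together with LPS in both genotypes. Bcl2a1a had 2117, 2092 and 2205 normalized counts in WT, 8123, 8616 and 8998 in WTL, 2151, 2064 and 2111 in KO, and 10566, 9763 and 12058 in KOL. Bcl2a1b had 4443, 4500 and 4617 in WT, 19843, 19303 and 20350 in WTL, 3661, 3634 and 3466 in KO, and 18017, 17667 and 20941 in KOL. Bcl2a1d had 3357, 3287 and 3423 in WT, 14567, 14612 and 15725 in WTL, 3431, 3310 and 3286 in KO, and 19718, 18657 and 22511 in KOL. No LPS library overlapped an unstimulated one for any copy, and replicates of the unstimulated groups lay close together. The rise in WTL was 4.01-fold for Bcl2a1a (2.00 ± 0.08, adjusted p = 3.43e-11), 4.39-fold for Bcl2a1b (2.13 ± 0.07, adjusted p = 8.41e-12) and 4.46-fold for Bcl2a1d (2.16 ± 0.08, adjusted p = 1.00e-11). In KOL against KO it was 5.12-fold, 5.26-fold and 6.07-fold. Without LPS only Bcl2a1b of these 3 passed between KO and WT, 1.26-fold lower (-0.33 ± 0.07, adjusted p = 0.00168), whereas Bcl2a1a (-0.02, 95% interval -0.17 to 0.13) and Bcl2a1d (-0.01, 95% interval -0.15 to 0.14) did not. In KOL against WTL, Bcl2a1a was 1.26-fold higher (adjusted p = 0.00285) and Bcl2a1d 1.36-fold higher (adjusted p = 0.000218), and Bcl2a1b did not pass (-0.07, 95% interval -0.21 to 0.07).

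Because RSEM divides reads among the copies, their counts were also added, with the 4th copy Bcl2a1c included. The sum was 9933, 9887 and 10252 normalized counts in WT, 42577, 42604 and 45148 in WTL, 9254, 9019 and 8873 in KO, and 48377, 46171 and 55587 in KOL. It was 4.34-fold higher in WTL than in WT (2.12 ± 0.08, adjusted p = 1.10e-11) and 5.53-fold higher in KOL than in KO (2.47 ± 0.08, adjusted p = 2.11e-12). All KO libraries lay below all WT libraries, yet the difference of -0.15 did not pass in the fit of all libraries (adjusted p = 0.117) and did in a fit of those 6 alone (adjusted p = 0.0019). In KOL against WTL the sum was 1.15-fold higher (0.20 ± 0.07, adjusted p = 0.034), a call lost without WTL replicate 1 (adjusted p = 0.0598), WTL replicate 2 (0.0959) or KOL replicate 3 (0.155).

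How the A1 counts were divided differed by genotype. Bcl2a1b held 45.1% ± 0.4 of the summed counts in WT (SD, n = 3), 45.7% ± 0.83 in WTL, 39.6% ± 0.61 in KO and 37.7% ± 0.51 in KOL. Bcl2a1d held 33.5% ± 0.29, 34.4% ± 0.33, 36.9% ± 0.2 and 40.6% ± 0.18, and Bcl2a1a between 19.1% and 23.8% in every library. No KO or KOL library overlapped a WT or WTL library for Bcl2a1b or Bcl2a1d, and by counts Bcl2a1d stood above Bcl2a1b in KOL alone. Counts are not corrected for length, and by TPM the libraries of Bcl2a1b and Bcl2a1d overlapped in KOL (2094 ± 158 and 2088 ± 174). These shares do not depend on the scaling between libraries, but they do depend on the division of shared reads: the expected counts of the 3 copies were not whole (within 0.005) in any of the 12 libraries, whereas those of Bcl2l1, Mcl1, Bcl2l11, Pmaip1 and Bbc3 were whole in all 12. Bcl2a1c took at most 0.183% of the counts in any library. The gene model Gm29094 overlaps exons of Bcl2a1b on the same strand and received 835 counts over all libraries.

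**Figure D2:**
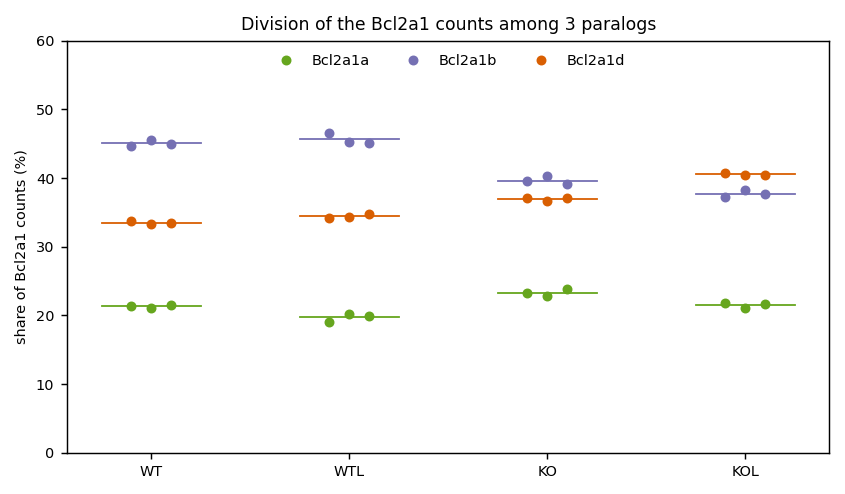
Share of the summed Bcl2a1 counts in percent that RSEM assigned to Bcl2a1a, Bcl2a1b and Bcl2a1d, with 1 point for each library and a line at the group mean. Bcl2a1b and Bcl2a1d lie at 45.1% and 33.5% in WT and at 37.7% and 40.6% in KOL. Counts are not corrected for length, and by TPM these copies overlap in KOL.

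Mcl1, whose short-lived protein must be replaced continually, changed less. It had 8699, 7953 and 7989 normalized counts in WT, 11751, 11645 and 12430 in WTL, 7219, 7432 and 7024 in KO, and 15940, 11966 and 16231 in KOL. LPS libraries lay above unstimulated ones, and KOL replicate 2 fell among the WTL libraries while the other KOL libraries lay above them. Mcl1 was 1.45-fold higher in WTL than in WT (0.54 ± 0.10, adjusted p = 0.000261), a rise that was absent on the TPM scale (0.01, adjusted p = 0.936), and 2.04-fold higher in KOL than in KO (1.03 ± 0.10, adjusted p = 4.24e-07), where 0.55 remained on the TPM scale (adjusted p = 0.00133). Between KO and WT it did not pass (-0.18, 95% interval -0.38 to 0.01, adjusted p = 0.142) in the fit of all libraries, but did in a fit of those 6 alone (adjusted p = 0.000797) and without KOL replicate 2 (adjusted p = 0.0172). The 1.23-fold higher level in KOL than in WTL (0.30 ± 0.10, adjusted p = 0.0215) was lost without WTL replicate 2 (adjusted p = 0.0682), KOL replicate 1 (0.0912) or KOL replicate 3 (0.0982). It was also lost with all replicates kept, in a fit of those 6 libraries (0.33, adjusted p = 0.0763) and on the TPM scale (0.26, adjusted p = 0.106).

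Bcl2, the founding member of the family, was sparse and moved the other way. It had 63.4, 61.2 and 60.5 normalized counts in WT, 24.3, 35.7 and 30.8 in WTL, 51.1, 47 and 61.1 in KO, and 51.6, 44.5 and 60.9 in KOL, with at most 73 reads in any WT library. The WTL libraries were the lowest of all, and KO and KOL overlapped. Bcl2 fell 2.01-fold in WTL against WT (-1.01 ± 0.19, adjusted p = 0.000398) and stood 1.71-fold higher in KOL than in WTL (0.78 ± 0.20, adjusted p = 0.00574), whereas limma on log2(TPM + 1) without a filter gave -0.52 (adjusted p = 0.00171) for the first and lost the second (adjusted p = 0.0676). The pseudocount of 1 exceeds every TPM of Bcl2 (means 0.92 in WT, 0.34 in WTL and 0.65 in KOL) and shrinks differences in that fit. Bcl2 did not pass in KO against WT (-0.21, 95% interval -0.56 to 0.13) or in KOL against KO (-0.02, 95% interval -0.37 to 0.34).

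**Figure D3:**
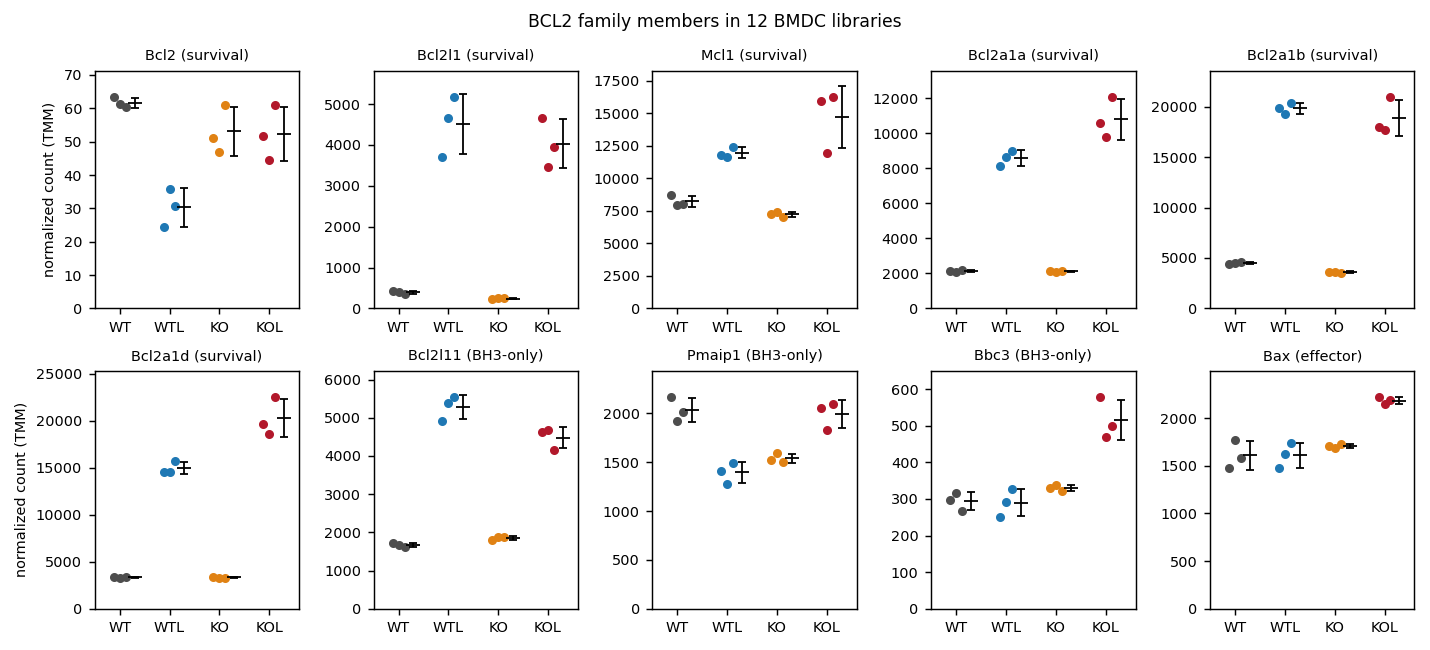
Normalized counts of the 10 members in the 12 libraries, 1 point for each library, with the group mean and SD (n = 3) to the right of the points and axes that start at 0. The A1 copies and Bcl2l1 separate by LPS, Bax and Bbc3 are highest in KOL, and Bcl2 is lowest in WTL.

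The BH3-only genes did not move as a group. Bcl2l11, whose product BIM binds all the survival proteins, had 1729, 1680 and 1617 normalized counts in WT, 4917, 5383 and 5534 in WTL, 1790, 1885 and 1877 in KO, and 4619, 4675 and 4154 in KOL. It was high in every LPS library, and KOL lay below WTL without overlap. Bcl2l11 was 3.15-fold higher in WTL than in WT (1.66 ± 0.07, adjusted p = 9.09e-11) and 2.42-fold higher in KOL than in KO (1.28 ± 0.07, adjusted p = 1.22e-09), the latter at 0.63 on the TPM scale (adjusted p = 3.15e-05). It was 1.18-fold lower in KOL than in WTL (-0.24 ± 0.07, adjusted p = 0.0135), a call that was lost without WTL replicate 3 (adjusted p = 0.0529) or KOL replicate 3 (0.0618), in a fit of those 6 libraries (-0.20, adjusted p = 0.133) and without a filter on low counts (-0.22, adjusted p = 0.0573), and held on the TPM scale (-0.38, adjusted p = 0.00343). The KO and WT libraries did not overlap, with KO higher, but 0.14 (95% interval 0.00 to 0.28) did not pass (adjusted p = 0.118) except in a fit of those 6 libraries (adjusted p = 0.00568).

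Pmaip1, whose product NOXA binds MCL1 and A1, went in opposite directions in the genotypes. It had 2163, 1923 and 2012 normalized counts in WT, 1415, 1280 and 1492 in WTL, 1525, 1590 and 1506 in KO, and 2053, 1829 and 2097 in KOL. WT and KOL were the high groups and WTL and KO the low ones, without overlap between high and low. Pmaip1 was 1.46-fold lower in WTL than in WT (-0.54 ± 0.08, adjusted p = 3.93e-05) and 1.32-fold lower in KO than in WT (-0.40 ± 0.08, adjusted p = 0.000873). It was 1.43-fold higher in KOL than in WTL (0.51 ± 0.08, adjusted p = 0.000116) and 1.29-fold higher in KOL than in KO (0.37 ± 0.08, adjusted p = 0.00084), though on the TPM scale the difference between WTL and WT was -1.04 (adjusted p = 5.99e-06) and the last turned to -0.08 and did not pass (adjusted p = 0.503).

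Bbc3 stood out in KOL. Its normalized counts were 298, 316 and 268 in WT, 251, 293 and 326 in WTL, 329, 339 and 322 in KO, and 577, 470 and 499 in KOL. Every KOL library was above every other library, and WT and WTL overlapped. Bbc3 was 1.77-fold higher in KOL than in WTL (0.83 ± 0.10, adjusted p = 1.73e-05) and 1.56-fold higher in KOL than in KO (0.64 ± 0.10, adjusted p = 6.24e-05), the latter at 0.17 on the TPM scale (adjusted p = 0.183). In WTL against WT it did not pass (-0.01, 95% interval -0.22 to 0.19), but was lower on the TPM scale (-0.36, adjusted p = 0.0115). The difference between KO and WT, 0.17 (95% interval -0.04 to 0.37) did not pass either (adjusted p = 0.211), and did in a fit of those 6 libraries (adjusted p = 0.047).

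Among the 3 BH3-only members, with other genes of the class such as Bmf left out, the balance shifted toward Bcl2l11 with LPS. Its share of their summed TPM, which the scaling between libraries does not touch, was 29.8% ± 1.45 in WT and 64% ± 1.77 in WTL (SD, n = 3), and 37.4% ± 1.21 in KO and 48.3% ± 3.77 in KOL. Pmaip1 held 54.7% ± 1.53 in WT, 24.7% ± 1.77 in WTL, 43.8% ± 0.14 in KO and 34.2% ± 2.64 in KOL. The ratio of Bcl2l11 to Pmaip1 TPM was accordingly 0.55 ± 0.04 in WT, 2.60 ± 0.27 in WTL, 0.85 ± 0.03 in KO and 1.42 ± 0.22 in KOL, and no 2 groups overlapped.

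Bax, which encodes the pore former that survival proteins restrain, had 1473, 1770 and 1580 normalized counts in WT, 1474, 1627 and 1734 in WTL, 1710, 1681 and 1723 in KO, and 2217, 2143 and 2186 in KOL. The KOL libraries were above all others, and the other 3 groups overlapped. Bax was 1.35-fold higher in KOL than in WTL (0.44 ± 0.08, adjusted p = 0.000457) and 1.28-fold higher in KOL than in KO (0.36 ± 0.08, adjusted p = 0.00115), but the second difference was -0.08 on the TPM scale (adjusted p = 0.428). In WTL against WT, 0.00 (95% interval -0.15 to 0.16) did not pass on the TMM scale, and Bax was lower by TPM (-0.49, adjusted p = 0.000273), a shift as large as that of the median gene. Nor did it pass in KO against WT (0.08, 95% interval -0.07 to 0.24). The ratio of Mcl1 to Bax TPM was 1.07 ± 0.14 in WT, 1.51 ± 0.09 in WTL, 0.88 ± 0.04 in KO and 1.37 ± 0.23 in KOL.

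**Figure D4:**
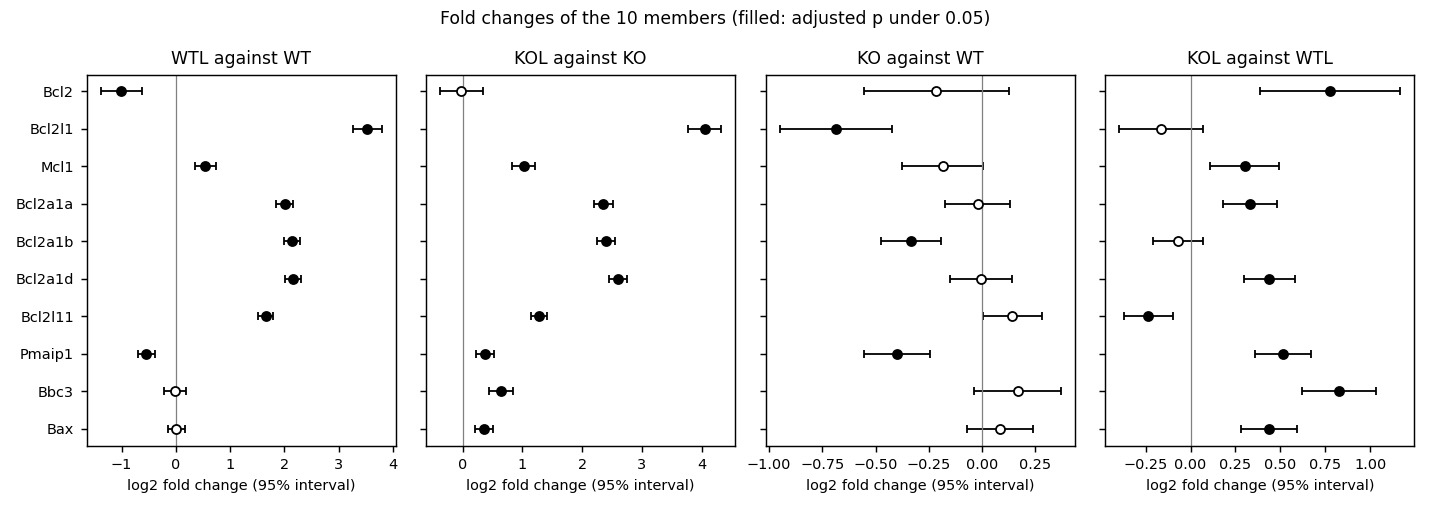
Log2 fold change of each of the 10 members in 4 comparisons with its 95% interval from the edgeR fit, filled where the adjusted p was under 0.05, and with a different horizontal scale in each panel. Survival genes other than Bcl2 lie right of 0 with LPS, and 7 members lie right of 0 and pass in KOL against WTL.

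At the study's own fold cutoffs fewer members remained, 6 in WTL against WT (22.6% of all genes), 2 in KO against WT (34.5%), 6 in KOL against KO (28.1%) and 2 in KOL against WTL (25%), the last being Bcl2 and Bbc3. Fitted on its own 6 libraries, KO against WT called 6 members in place of 3, where 62% of all genes were called. Fitted likewise, KOL against WTL called 4475 of 13060 genes, and Mcl1 and Bcl2l11 lost their calls (adjusted p = 0.0763 and 0.133).

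The LPS response itself was then compared between genotypes. An interaction term in the same fit asked whether the log2 response in KO differed from that in WT. It passed for 8 of the 10 members, 7 with a larger or less negative response in KO and 1 with a smaller one, where 17.4% of all genes passed (8.7% and 8.75%). The responses share no library between genotypes, and they stand side by side in the plot of the LPS response by genotype. Pmaip1 differed by 0.91 ± 0.11 (adjusted p = 8.93e-05), from -0.54 in WT to 0.37 in KO. Bcl2 differed by 0.99 ± 0.26 (adjusted p = 0.0193), from -1.01 to -0.02, and Bbc3 by 0.66 ± 0.15 (adjusted p = 0.00715), from -0.01 to 0.64. Bcl2a1d differed by 0.44 ± 0.10 (adjusted p = 0.00938), Mcl1 by 0.49 ± 0.14 (adjusted p = 0.0262), Bcl2a1a by 0.35 ± 0.11 (adjusted p = 0.04) and Bax by 0.35 ± 0.11 (adjusted p = 0.0441). Bcl2l11 alone responded less in KO, by -0.38 ± 0.10 (adjusted p = 0.0178). Bcl2l1 (0.52, 95% interval 0.17 to 0.87, adjusted p = 0.0615) and Bcl2a1b (0.26, 95% interval 0.06 to 0.46, adjusted p = 0.0923) did not pass, and with DESeq2 both did, at 0.0318 and 0.0298.

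**Figure D5:**
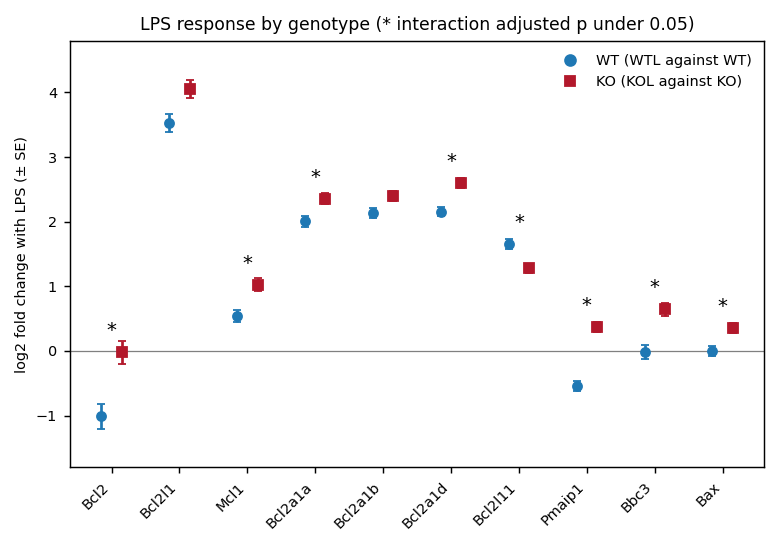
Log2 fold change with LPS in WT (circles) and in KO (squares) for the 10 members, with SE bars from the edgeR fit and an asterisk where the interaction had an adjusted p under 0.05. Pmaip1 lies below 0 in WT and above 0 in KO, and Bcl2l11 is the only marked gene whose square lies below its circle.

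Several of these 8 interaction calls rested on single libraries. Those of Pmaip1, Bcl2a1d and Bbc3 held in all 12 fits that left out 1 library, although that of Bbc3 was lost with limma on log2(TPM + 0.1) (adjusted p = 0.0508). Limma without a filter, whose pseudocount exceeds every TPM of Bcl2 and shrinks its difference, lost those of Bcl2, Mcl1, Bcl2a1a, Bbc3 and Bax (adjusted p = 0.0563 to 0.114). That of Bcl2 was lost without KO replicate 2 (0.91, adjusted p = 0.0506). That of Mcl1 was lost without WTL replicate 2, KO replicate 1 or 3, or KOL replicate 1 or 3 (adjusted p = 0.0617 to 0.071), and that of Bcl2l11 without any WT replicate or without KO replicate 2 or 3 (adjusted p = 0.0519 to 0.114). Bcl2a1a lost its call without WT replicate 3, WTL replicate 1 or 2, any KO replicate, or KOL replicate 1 or 3 (adjusted p = 0.0519 to 0.0989), and Bax without WT replicate 2, WTL replicate 1 or 2, any KO replicate, or KOL replicate 1 or 3 (adjusted p = 0.0572 to 0.102). Bcl2l1 gained one without WT replicate 3 (adjusted p = 0.0485), WTL replicate 3 (0.0228) or KOL replicate 2 (0.0139), and Bcl2a1b without KOL replicate 2 (0.0275). Without WTL replicate 2, the library with the most ribosomal RNA, 8 members passed in WTL against WT (53.7% of all genes), 7 in KOL against WTL (38.5%) and 5 for the interaction (13.1%).

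The effective length in the files, which RSEM weights by the isoforms it assigns, was steady for most members and moved for Bcl2l11. In Bcl2l11 it was 3712 ± 195 bases in WT, 3551 ± 141 in WTL, 3431 ± 138 in KO and 3870 ± 103 in KOL (SD, n = 3). All KOL libraries lay above all KO libraries, whereas WT and WTL overlapped. Bbc3 averaged 1251 bases in WT and 1111 in WTL without overlap, and 1220 and 1222 in KO and KOL. Mcl1, a gene with a nearly constant value, stayed between 3178 and 3201 bases. Bcl2 averaged 5337 to 6451 bases, on few reads.

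Across the 12 libraries, log2 CPM of Bcl2l1 and the A1 copies ran together (Pearson r = 0.977 to 0.996 for Bcl2l1 with each copy), Bcl2l11 with Bcl2l1 at r = 0.975 and Bbc3 with Bax at r = 0.958. These values describe 12 libraries that fall into LPS and unstimulated clusters and share their scaling. Among 9338 genes with at least 100 normalized counts on average, those most like Bcl2l1 were Ppa1, Rnf114 and Ccl22 (r = 0.998 to 0.999), those most like Bcl2l11 were Bfar, N4bp1 and Tbc1d1 (0.996 to 0.999), and those most like Mcl1 were Tnfaip8, Marcks and Dusp5 (0.984 to 0.992). Bcl2a1a and Bcl2a1d were nearest to each other (0.999), and beside them stood H2-T22, Psma6 and Cd86, while Bcl2a1b was nearest to Ifit3, Parp12 and Phf11b (0.998). Pmaip1 was nearest to Snhg1, Nasp and Ei24 (0.913 to 0.947), Bbc3 to Ctu2, Orai1 and Actr1b (0.970 to 0.975), Bax to Zbtb17, Actr1b and Bbc3 (0.958 to 0.963), and Bcl2 to Cdk2, Panx1 and Plekho1 (0.944 to 0.950).

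The rest of the family and the machinery around it moved in both directions. Counts of list genes in this and the following paragraphs are descriptions, to be read beside the shares of all genes tested. Of those, 30% were higher and 30.2% lower in WTL against WT, and 22.2% higher and 22.4% lower in KO against WT. Of 14 further BCL2 family genes, 10 could be tested, and 3 rose and 4 fell in WTL against WT (median -0.13). Bmf, a BH3-only gene, fell from 1706 ± 42.3 to 264 ± 49.5 normalized counts (-2.69, adjusted p = 2.04e-11), opposite to Bcl2l11. Bid, whose product links death receptors to BAX and BAK1, rose from 107 ± 14.8 to 220 ± 10.8 (1.04, adjusted p = 1.32e-06). In unstimulated cells 3 were higher in KO than in WT and 3 lower. Bcl2l14 rose from 87.1 ± 4.13 to 368 ± 48.6 (2.08, adjusted p = 6.02e-08), and Bak1, the second pore former, fell from 1498 ± 78.7 to 1112 ± 33.3 (-0.43, adjusted p = 0.000107), a call lost on the TPM scale (-0.20, adjusted p = 0.1002).

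Downstream of the mitochondria, 4 of 12 genes of the apoptosome and its caspases rose with LPS in WT and 5 fell, with the largest fall in Casp9 (-1.31, adjusted p = 3.08e-09). Between KO and WT, 5 rose and 1 fell. Apaf1, which encodes the scaffold of the apoptosome, was the gene that fell (-0.35, adjusted p = 0.000783). Of 9 genes of the inhibitor of apoptosis family, 3 rose and 2 fell with LPS in WT, with Birc3 up (0.98, adjusted p = 6.28e-09) and Birc5 down (-0.74, adjusted p = 2.38e-06). On the TPM scale Birc3 did not pass (0.24, adjusted p = 0.0759). Of these, 1 rose in KO against WT, Naip6 (0.30, adjusted p = 0.0371), and 4 fell, Birc5 the most (-0.61, adjusted p = 2.63e-05). The call of Naip6 was lost without any of the WT or KO replicates or WTL replicate 2 (adjusted p = 0.0503 to 0.156), with DESeq2 (0.0542) and on the TPM scale (0.19, adjusted p = 0.231).

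Of 9 tested death receptor genes, 6 rose and 1 fell in WTL against WT (median 0.56). Tnfsf10, encoding the ligand TRAIL, rose from 55.5 ± 10.05 to 1296 ± 284 normalized counts (4.53, adjusted p = 5.62e-11), and its receptor Tnfrsf10b fell (-0.34, adjusted p = 0.0435). The latter call was lost without WT replicate 3, WTL replicate 1 or 2, KO replicate 1 or 3, or KOL replicate 1 or 3 (-0.34 to -0.22, adjusted p = 0.0507 to 0.155), and with DESeq2 (0.0786), and held on the TPM scale (-0.68, adjusted p = 0.000376). Between KO and WT, Tnfrsf1a was the gene that rose (0.33, adjusted p = 0.00115) and Cflar the one that fell (-0.74, adjusted p = 0.000295). Cflar encodes c-FLIP, the inhibitor of caspase 8. Of 12 genes of the p53 pathway, among whose targets are Bax, Bbc3 and Pmaip1, 4 rose and 8 fell with LPS in WT, led by Eda2r (2.17, adjusted p = 9.26e-09) and Trp53inp1 (-2.16, adjusted p = 1.51e-11). In unstimulated KO cells 2 rose and 6 fell, with Trp53 itself up (0.51, adjusted p = 3.14e-05) and Phlda3 down (-0.78, adjusted p = 0.0028).

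Of 9 tested regulators of the members' transcription, 6 rose and 3 fell in WTL against WT (median 0.91), with the largest rise in Stat5a (2.66, adjusted p = 8.41e-12) and the largest fall in Foxo3 (-1.48, adjusted p = 1.68e-09), whose product can induce Bcl2l11. In unstimulated KO cells 2 rose, Foxo3 the most (0.33, adjusted p = 0.00266, and 0.21 with 0.132 on the TPM scale), and 2 fell, Ddit3 the most (-0.44, adjusted p = 0.00759, for the identifier of that symbol with more counts). Of 6 genes of MCL1 turnover, 2 rose and 1 fell with LPS in WT. Fbxw7, a ubiquitin ligase subunit that targets MCL1, rose by TMM (0.52, adjusted p = 0.000233) and did not by TPM (-0.003), and Gsk3b fell (-0.37, adjusted p = 0.022), though not without WTL replicate 2 (0.0689) or 3 (0.0922). Between KO and WT 1 rose, the MCL1 ligase Huwe1 (0.38, adjusted p = 0.0448), a call lost without any of the WT or KO replicates or WTL replicate 2 (adjusted p = 0.0586 to 0.158), with the replicate block (0.0535) and on the TPM scale (0.21, adjusted p = 0.451). Of 8 genes of mitochondrial channels and shape, 3 rose and 1 fell with LPS in WT, Vdac3 (0.83, adjusted p = 7.54e-07) and Mfn2 (-0.18, adjusted p = 0.0418), and 2 fell in KO against WT, with Fis1 the most (-0.41, adjusted p = 0.00411). The fall of Mfn2 was lost without WTL replicate 2 or 3 or any KO replicate (adjusted p = 0.053 to 0.177), with DESeq2 (0.057) and with the replicate block (0.0598), and was -0.69 on the TPM scale (adjusted p = 0.000101). Among the LPS changes of list genes in WT that kept their calls, the TPM scale moved Tnfsf10 to 3.16, Stat5a to 2.13, Eda2r to 1.40, Bid to 0.47 and Vdac3 to 0.30. It moved Bmf to -2.96, Trp53inp1 to -2.49, Casp9 to -1.77, Birc5 to -1.21, Tnfrsf10b to -0.68 and Gsk3b to -0.65. In KO against WT it moved Apaf1 to -0.62.

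Markers of other cells moved with the groups and are given because the A1 genes are also expressed by neutrophils. Of 8 neutrophil markers 6 could be tested. Their summed normalized counts were 1115 to 1207 in WT, 1605 to 1877 in WTL, 585 to 668 in KO and 1187 to 1403 in KOL, with 5 of 6 lower in KO than in WT and 4 of 6 lower in KOL than in WTL. S100a8 and S100a9 made up most of the sum, and the defining genes Ly6g and Elane had at most 17 and 11 counts in any library. Macrophage markers summed to 20210 to 21963 in WT, 12874 to 16067 in WTL, 28881 to 30013 in KO and 11265 to 15022 in KOL. Csf1r carried most of the sum in unstimulated cells (14233 ± 643 in WT and 23576 ± 460 in KO), and of the 5 markers 1 rose and 3 fell in KO against WT, among them Adgre1 from 1720 ± 63.7 to 981 ± 31.4, and 2 fell and none rose in KOL against WTL. Mast cell and basophil markers summed to at most 176, of which all but Kit had under 10 counts, and B cell and erythroid markers to at most 29.8 and 26.9. The part of these cells in the members' values was not tested.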

How the data were processed

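RNA was sequenced from 12 BMDC libraries of 4 groups, assigned by their titles. Per the labels and the paper's methods, the authors trimmed paired reads, aligned them to mm10 with STAR (2.5.1 per the labels' processing notes) and ran RSEM. For each gene the authors deposited an expected count, an estimate that divides reads shared by several genes. Their deposited TPM values, corrected for length, add up to the same total per library, and an effective length stands beside them. The methods name a poly(A) kit and the labels ribosomal RNA depletion. The strand setting of RSEM is not given in the sources used here, so antisense and overlapping genes cannot be separated with certainty.

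Expected counts were rounded, normalized with TMM and tested with edgeR 4.0.16 (glmQLFit, glmQLFTest) in 1 fit of all 12 libraries without covariates, after filterByExpr had left 14008 of 55335 genes. Adjusted p-values (Benjamini-Hochberg, over these genes) under 0.05 passed. Intervals are 1.96 SE. Normalized counts are counts per effective library size times its mean over libraries. Depth of 12769773 to 16586334 expected counts limits the precision of sparse genes, here Bcl2. The fits were tested on simulated data that gave each gene the same spread in every group. That test cannot check the effect of the unequal spread between the groups here.

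The members, lists and tests were chosen with earlier results of these data known, so counts of members are descriptions. All 10 members were named, and from each list the largest called rise and fall in WTL against WT and in KO against WT, with a mean of 100 or more normalized counts, and for each member the 3 genes with the highest Pearson r. Some genes that this rule names are not reported here. Gene positions and transcripts are from GENCODE M21 on mm10, promoters from RefSeq. Replicate pairs differed beyond counting noise in each group, with 0 identical pairs. Alternatives were DESeq2 1.42.0, its size factors, other filters, 6 libraries alone, the replicate number as a block, limma 3.58.1 with a pseudocount of 1 or 0.1 on log2 TPM (filtered at 1 TPM in 3 libraries, or unfiltered), fold cutoffs of 2 (LPS), 1.3 (KO against WT) and 1.5 (KOL against WTL), and leaving out each library. R 4.3.3, Python 3.11.15, Biopython and matplotlib were used.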

Additional observations from a re-analysis of the deposited data

Results flagged for a closer look

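The difference between the LPS responses of KO and WT passed the interaction test of edgeR for 8 members and for the summed A1 counts. Each of the 4 groups had 3 libraries, and 17.4% of all genes passed. On the log2 scale it was 0.9914 for Bcl2, 0.486 for Mcl1, 0.3513 for Bcl2a1a, 0.4449 for Bcl2a1d, -0.3795 for Bcl2l11, 0.9141 for Pmaip1, 0.6578 for Bbc3 and 0.3522 for Bax. The summed A1 counts differed by 0.3518 (adjusted p = 0.0303). Pmaip1 was the member whose response passed the test in both genotypes with opposite signs, lower in WTL than in WT and higher in KOL than in KO, although its difference between KOL and KO did not pass on the TPM scale. Ctcf, the targeted gene, did not pass the same test (0.28, adjusted p = 0.098).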

How the results depend on the processing

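Of 445 recomputed member fold changes that kept all libraries, 393 kept their direction and their side of the threshold and 17 turned direction, and of 600 with 1 library left out, 552 did and 10 turned. Fitted on the 6 libraries of the comparison, KO against WT called 6 members (62% of all genes). With the fold cutoffs, KOL against WTL called 2 members, and the pathway lists had 19, 17, 14 and 24 genes called in WTL against WT, in KO against WT, in KOL against WTL and in KOL against KO, in place of 56, 34, 34 and 56. The interaction called 5 members with limma on log2(TPM + 0.1) (1363 of 13435 genes) and 3 with limma without a filter (1311 of 27296 genes). Of the lists it called 13, 10 and 9 genes with log2(TPM + 1), log2(TPM + 0.1) and no filter in place of 20. Limma without a filter called 21 list genes in KO against WT. With 1 library left out, the interaction called 4 to 10 members and 12 to 28 list genes. The fewest members were called without KO replicate 2 or 3 and the fewest list genes without KO replicate 3. Over all genes it called from 1662 of 14358 without KO replicate 3 to 3769 of 14378 without KOL replicate 2. The summed A1 counts in KO against WT passed with the 6 libraries (-0.15), limma on log2(TPM + 1) (-0.25) and log2(TPM + 0.1) (-0.25). In KOL against WTL they did not pass with the 6 libraries (0.24) or with limma on log2(TPM + 1), on log2(TPM + 0.1) or without a filter (0.17 each), nor for the interaction with limma without a filter (0.41). With 1 library left out these A1 values were 0.12 to 0.26 and 0.27 to 0.43, the interaction losing its call without WTL replicate 2, any KO replicate or KOL replicate 3.

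Some directions turned at values near 0. Others turned on the TPM scale from values that had passed, 0.36 for Bax and 0.37 for Pmaip1 in KOL against KO. For Bax, the difference between WTL and WT was -0.021 without a filter, -0.0089 with at least 10 counts in every library, -0.0047 in 6 libraries and -0.49 with each limma fit, and -0.13 to 0.062 with 1 library left out. Its difference between KO and WT was -0.0073 with each limma fit and -0.013 to 0.12 with 1 library left out, and that between KOL and KO -0.076 with each. Pmaip1 in KOL against KO was -0.081, -0.083 and -0.081 with the limma fits. Bcl2a1d in KO against WT was 0.0020 with at least 10 counts and -0.056 to 0.0075 with 1 library left out. Bcl2a1b in KOL against WTL was 0.20 with the copies added. With 1 library left out, Bbc3 in WTL against WT was -0.15 to 0.073 and Bcl2 in KOL against KO -0.14 to 0.090. Fbxw7 in WTL against WT was -0.0025, -0.0026 and -0.0025 with the limma fits. Leaving out a WT library moved the share of higher genes among all interaction calls from 49.9% to between 62.9% and 65.2%, and the TPM scale to 61.1%. The causes were not tested, and the depth limits Bcl2 most.

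Whether same-numbered libraries share an animal or culture is not stated, and the correlations below cannot settle it. Deviations of same-numbered libraries from their group means correlated at -0.33 to 0.13 over 18 pairs, 1 of them over 0.1. The replicate block left the number of members called at 8 in WTL against WT, 3 in KO against WT, 8 in KOL against WTL and 9 in KOL against KO. It gave 7 for the interaction, where Bax was lost (0.35, adjusted p = 0.0602). With that block 8205, 5921, 5888 and 9265 of all 14008 genes passed in these 4 comparisons, and 2063 for the interaction.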
